A study of Mus musculus with 281 samples.

Results

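Otog, Otogl, Tecta, Tectb, Otoa, Ceacam16, Otos, Otor and Coch encode secreted or surface glycoproteins of the acellular gels and matrices of the inner ear. They were chosen by name, and all 9 were found among the 47752 genes of the combined gene table. Their levels were followed in single cells of the adult mouse stria vascularis, the epithelium in the lateral wall of the cochlea that secretes endolymph. The cells were aspirated one by one with a glass micropipette after collagenase digestion and profiled with Smart-Seq2, a full-length single-cell RNA method. Of the cells, 40 were Slc26a4+/-, 69 were Slc26a4-/- and the rest were wild type (strain label 129S6). Slc26a4 encodes pendrin, the anion exchanger that is lost in Pendred syndrome. The mice were 22 to 42 days old in the wild type, 26 to 33 days in Slc26a4+/- and 24 to 44 days in Slc26a4-/-, and per the study's methods all were males on the 129S6 background, the mutants included.

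The labels tie no cell to a mouse, so each genotype was counted as 1 sample and no test between genotypes or cell types was made. Values are means over cells in CPM, a gene's count scaled by the total of its cell, with the range of session means as the spread. A session stands here for the cells of 1 genotype that share an age, a run date and a number code given with the deposited files, and what that code marks is not stated. There were 23 wild-type, 4 Slc26a4+/- and 10 Slc26a4-/- sessions. All Slc26a4+/- cells were sequenced in run 4 of the 4 run dates, and the Slc26a4-/- cells in runs 1, 2 and 4, with 1 cell in run 1. Depth ran from 1848 to 7932729 counts per cell with a median of 1312950, and the 20 cells under 100000 counts were all wild type. No 2 cells held identical values.

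Cells were clustered without the 9 genes, and 4 of 7 clusters could be named from marker genes. These were intermediate-like (87 cells, Mlana among the leading genes), spindle-like (34 cells, led by Wfdc18 and Anxa1), root-like (35 cells, led by Epyc, with the fibrocyte marker Lum and Ceacam16 itself also among the leading 10 genes) and marginal-like cells (21 cells, led by Dnase1). Root and spindle cells are the pendrin-expressing epithelial cells of the lateral wall, intermediate cells are the melanocyte-derived layer of the stria, and marginal cells are its potassium-secreting surface. Another 3 clusters stayed unnamed and are called here by leading genes. They were the Slc4a1 and Hbb-bs cluster (45 cells, 41 of them wild type, median depth 337420 counts), the Sorcs2 and Col1a1 cluster (42 cells) and the Crhbp and Slc26a7 cluster (17 cells). In the Sorcs2 and Col1a1 cluster 100% of cells scored highest for the intermediate markers. It stayed unnamed because its leading 10 genes held 0 of these markers and 1 of another list. Col1a1 had a median of 3.70 CPM in its 27 wild-type cells, of which 1 reached 100 CPM. Slc26a4 RNA was still counted in Slc26a4-/- root-like cells, at up to 3959 CPM, so its level did not check the labels.

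The tectorial membrane, the otolithic membranes and the cupulae are gels without cells that lie over the hair cells. Otogelin (Otog) and the otogelin-like protein (Otogl) are large mucin-like proteins of these gels. Alpha-tectorin (Tecta), beta-tectorin (Tectb) and Ceacam16 build the striated sheet of the tectorial membrane, and otoancorin (Otoa) holds that membrane to the non-sensory cells beneath it. Cochlin (Coch) and otospiralin (Otos) are abundant products of the fibrocytes of the spiral ligament, and otoraplin (Otor) is a small secreted protein of the cochlear connective tissue.

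The stretch before the start site is shown for Otos, Coch and Otor, which were high together in 1 cell, and for Otog as a gene of the root-like cells. Each sequence is the 100 bases upstream of the RefSeq start (build GRCm38.p6), read 5′ to 3′ on the gene's strand, at chr1:92648842-92648941 (minus strand), chr12:51593241-51593340 (plus), chr2:143078293-143078392 (plus) and chr7:46240887-46240986 (plus) in the order printed. Capitals mark the letters of 3 core promoter motifs, searched on both strands.
Otos: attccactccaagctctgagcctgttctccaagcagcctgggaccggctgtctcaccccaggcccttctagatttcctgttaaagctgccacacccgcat
Coch: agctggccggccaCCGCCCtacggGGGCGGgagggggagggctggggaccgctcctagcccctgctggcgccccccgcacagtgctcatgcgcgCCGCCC
Otor: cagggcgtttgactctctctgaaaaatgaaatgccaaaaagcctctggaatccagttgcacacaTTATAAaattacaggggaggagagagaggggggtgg
Otog: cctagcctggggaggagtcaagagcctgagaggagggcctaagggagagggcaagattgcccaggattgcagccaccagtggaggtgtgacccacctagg
Coch held 3 matches to the GC box GGGCGG, and Otor held a TATA box TATAA that matched on both strands in overlapping letters. The windows of Otos and Otog held none of these motifs, nor the CCAAT box CCAAT. Among 32851 RefSeq promoter windows of the same length, GGGCGG was found in 24.7%, TATAA in 10.2% and CCAAT in 18.9%. A match is a description of the letters and not a site of binding.

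Across wild-type cells, 6 of the 9 genes reached a mean of 10 CPM in at least 1 named cell type. Otogl, Otog and Ceacam16 were highest in root-like cells, and Otoa, Otos and Coch in marginal-like cells. Tecta, Tectb and Otor did not reach 10 CPM in any named wild-type cell type. Between genes, levels can be compared only per length, as TPM, the transcript counterpart of CPM that divides by length. The place of Otoa depended on the measure. Wild-type marginal-like cells had 13.2 CPM and spindle-like cells 9.78 CPM, but by TPM the means were 6.51 and 14.3. The spindle-like mean includes 1 cell at 251.5 TPM. In wild-type root-like cells the means were 404 TPM for Otog, 328.95 TPM for Ceacam16 and 113.7 TPM for Otogl. The place of Ceacam16 in this order rests on 1 cell, since without the highest cell of each gene the means were 192.8 TPM for Otog, 26.1 TPM for Ceacam16 and 94.6 TPM for Otogl. The Otog value on this scale includes a short transcript, described in the closing section, that the gene table's CPM leaves out. In these cells that transcript, of 2204 bases, had 4585 counts, and the long one, of 10043 bases, had 5656. By the long transcript alone Otog lay below Otogl per length. Its mean was 262.9 CPM over 10043 bases, against 611.1 CPM over 7071 bases for Otogl. The first place of Otog in this order therefore rests on the short transcript.

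**Figure D1:**
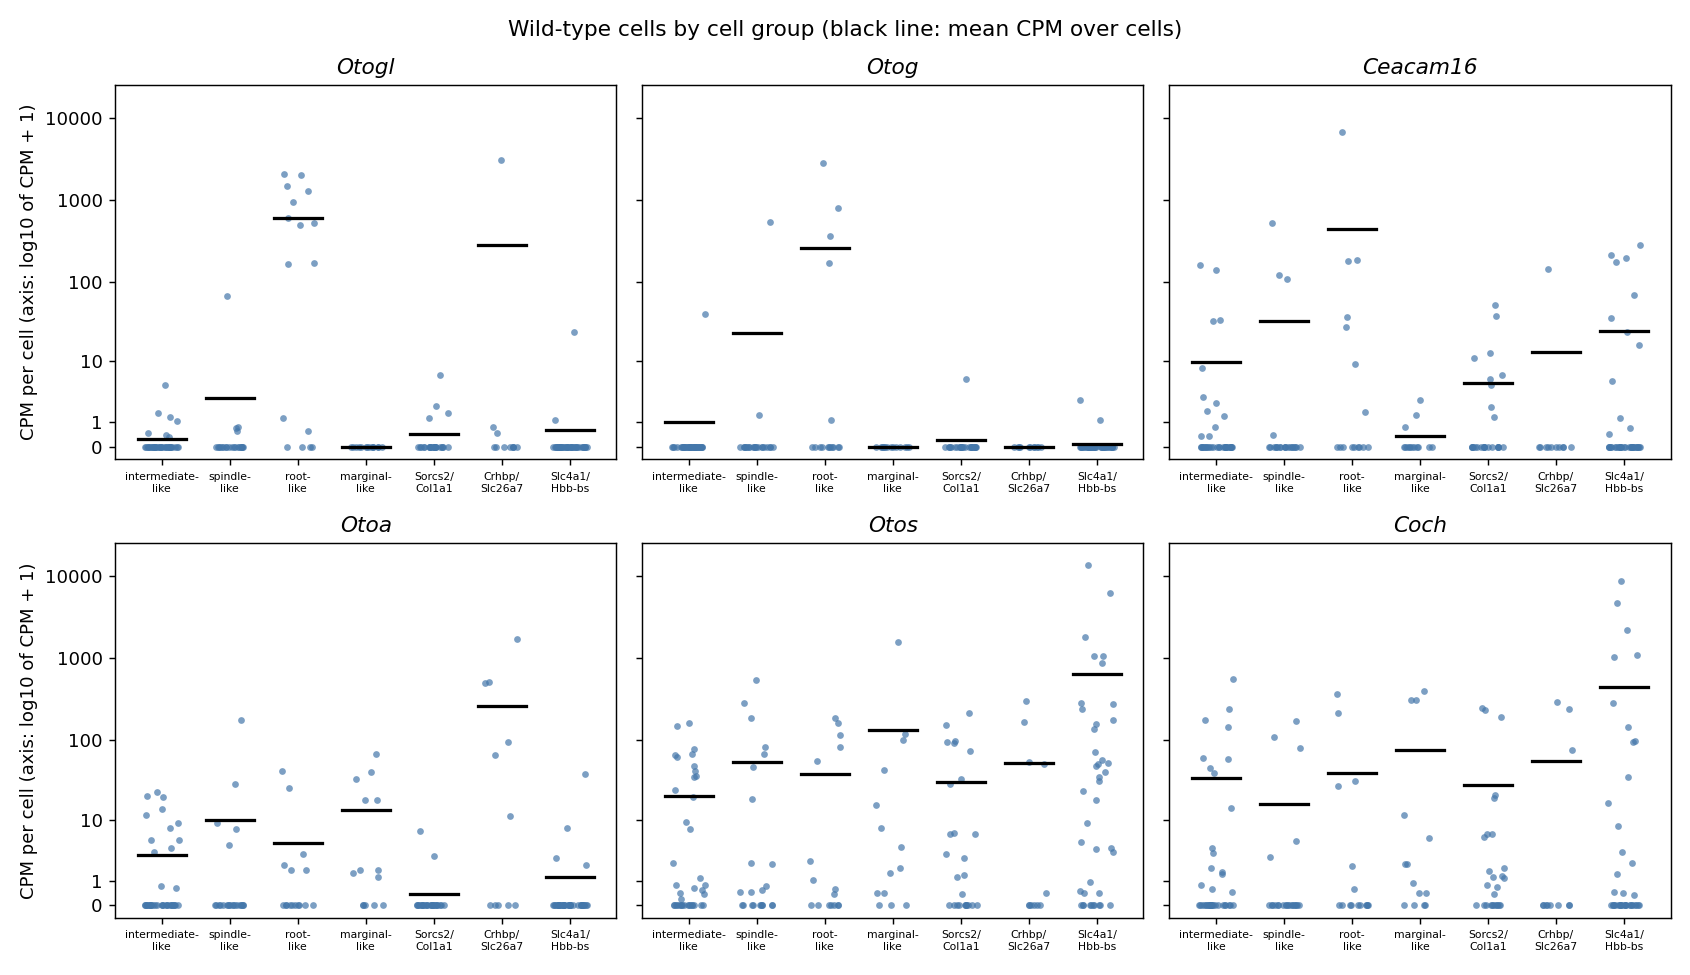
CPM of 6 genes in each wild-type cell (points, axis on log10 of CPM + 1) by cluster, with the mean over cells as a black line. Otogl and Otog cells above 100 CPM lie in the root-like cluster but for 1 cell of each gene, while Otos and Coch are spread over every cluster and peak in the Slc4a1 and Hbb-bs cluster.

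Otogl, on chromosome 10 (107760531 to 107912134, minus strand, GRCm38), had nearly all of its counts in 2 clusters. Of its CPM summed over all cells, 82% lay in root-like cells and 17.2% in the Crhbp and Slc26a7 cluster, where 1 wild-type cell held 3098 CPM. In 16 wild-type root-like cells the lowest was 0, the median 331 and the highest 2067 CPM (mean 611.1 CPM, session means 0 to 2027 CPM over 11 sessions). A count was found in 12 of 16 of these cells (75%), and 10 reached 100 CPM. In wild-type marginal-like cells it was 0 of 14 (exact 95% upper limit 23.2%, and 21.4% by the limit of 3 counts), at a median depth of 1425372 counts against 891474 in root-like cells. Wild-type intermediate-like cells held a mean of 0.25 CPM and spindle-like cells 2.99 CPM, of which 97.1% came from 1 cell at 66.8 CPM.

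In Slc26a4-/- root-like cells Otogl was almost not counted. The values in 13 cells were 67.9 CPM in 1 cell, 0.25 CPM in another and 0 in the rest, with a mean of 5.24 CPM against 611.1 CPM in the wild type. The log2 ratio was -6.62, with 1 CPM added to each mean, and without it the wild-type mean was 116.6-fold higher. It ranked at place 15 from the lowest among 10012 genes with at least 10 CPM in either genotype. No Slc26a4-/- cell reached 100 CPM (0 of 13, exact 95% upper limit 24.7%, and 23.1% by the limit of 3 counts), against 10 of 16 wild-type cells (62.5%, exact 95% interval 35.4 to 84.8%, for counting error over cells only). The shallowest of the 13 cells held 291609 counts, so that 100 CPM there was worth 29.2 counts and the depth was enough to see it. In Slc26a4+/- root-like cells the 6 values were 2229, 1516, 1212, 2.34, 0 and 0 CPM, a mean of 827 CPM, so the ranges of Slc26a4+/- and wild-type cells overlapped, and the highest cells of both lay above every knockout cell.

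Run dates were unevenly shared by the genotypes. In run 4, the only run with all 3 genotypes, the wild-type cells held 2067, 1468, 959, 609 and 1.27 CPM (mean 1021 CPM), and the 7 Slc26a4-/- cells, from 2 sessions, had a mean of 9.74 CPM (log2 ratio -6.57). In run 2 all 6 Slc26a4-/- cells were at 0, but so was the 1 wild-type root-like cell of that run, so run 2 gives no comparison. The log2 ratio lay between -8.98 and -5.35 over every alternative in which it could be computed.

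Markers of the root-like cells also differed between the groups. Lgr5, a receptor for R-spondins and a root cell marker, was at or above 10 CPM in 4 of 16 wild-type and 8 of 13 Slc26a4-/- root-like cells. Among cells with Lgr5 under 10 CPM, Otogl reached 100 CPM in 8 of 12 wild-type and 0 of 5 Slc26a4-/- cells. With Lgr5 at or above 10 CPM, it did so in 2 of 4 and 0 of 8 cells. Among cells with Slc26a4 RNA at or above 10 CPM, it did so in 7 of 10 wild-type and 0 of 7 Slc26a4-/- cells. With Slc26a4 RNA under 10 CPM, it did so in 3 of 6 and 0 of 6 cells. The summed level of the 6 root markers had medians of 12395 CPM in wild-type and 21413 CPM in Slc26a4-/- cells, with ranges of 1926 to 33416 and 2154 to 41931 CPM. Fibrocyte markers were present in both, at medians of 1048 and 1660 CPM summed over 8 genes, with Col3a1 at 0 in both. Marginal markers summed to a median of 752 CPM in wild-type (highest 27563) and 377 CPM in Slc26a4-/- cells. The part of these differences in the Otogl result was not tested.

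**Figure D2:**
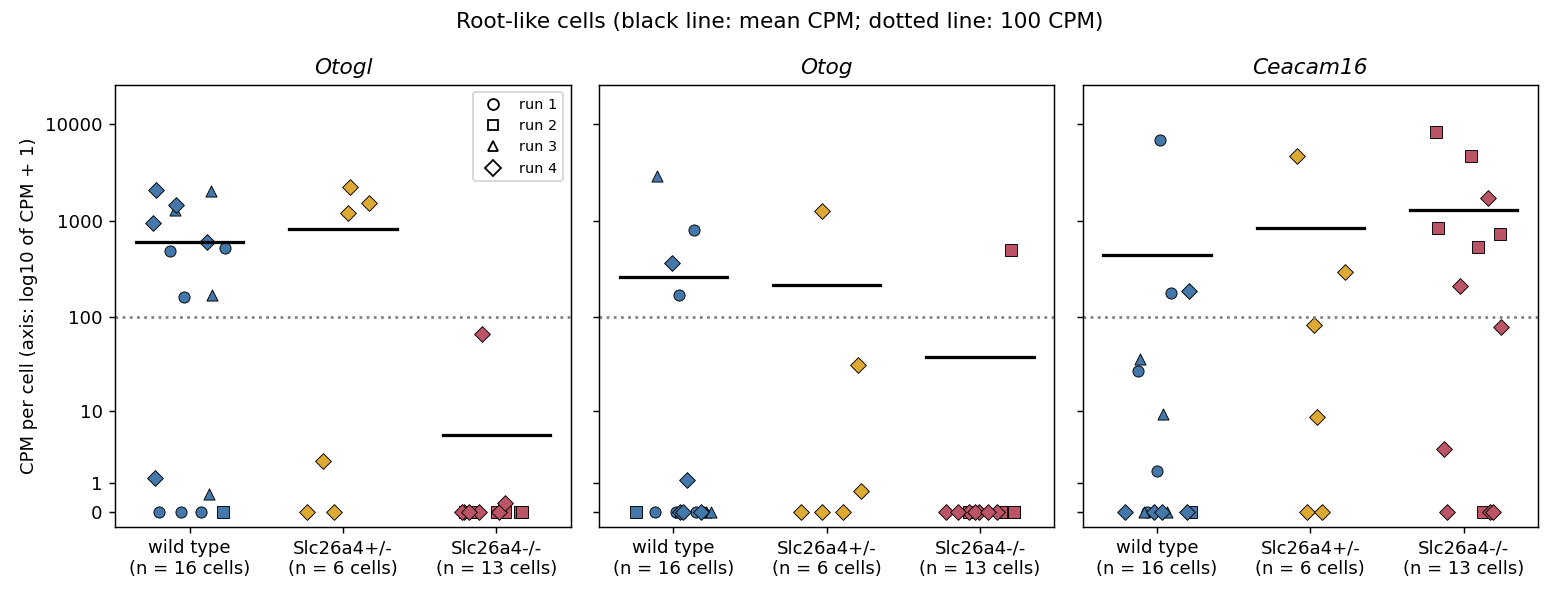
CPM of Otogl, Otog and Ceacam16 in each root-like cell (points, axis on log10 of CPM + 1) by genotype, with the run date as marker shape, the mean as a black line and 100 CPM as a dotted line. For Otogl, 10 wild-type and 3 Slc26a4+/- cells lie above the dotted line and no Slc26a4-/- cell does; for Ceacam16, 7 of 13 Slc26a4-/- cells lie above it.

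Otog, on chromosome 7 (46240987 to 46311434, plus strand), had 90.8% of its summed CPM in root-like cells, but in few of them. In the wild type the lowest and the median of 16 cells were 0 and the highest 2863 CPM (mean 262.9 CPM, session means 0 to 2863 CPM). The 4 cells over 100 CPM held 2863, 809, 363 and 171.2 CPM. In Slc26a4+/- cells 1 of 6 was over 100 CPM, at 1258 CPM. In Slc26a4-/- cells 1 of 13 was, at 501 CPM, with the other 12 at 0, a mean of 38.5 CPM and a log2 ratio to the wild type of -2.74. Without the highest cell of each, the means were 89.6 CPM in wild-type and 0 CPM in Slc26a4-/- cells. These groups overlapped, and the knockout mean came from that 1 cell, of run 2. In run 4 the means were 0 CPM in 7 knockout, 72.7 CPM in 5 wild-type and 215.2 CPM in the 6 Slc26a4+/- cells. The single spindle-like cell over 100 CPM was the shallowest of the study, in which 1 count is worth 541 CPM.

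The otogelins were seldom high in the same root-like cell. Of 22 wild-type and Slc26a4+/- root-like cells, 5 had Otog and 13 had Otogl at 100 CPM or more, and 1 cell had both. For Otogl and Ceacam16, at 13 and 5 of the same 22 cells, 2 had both. The overlap to be met from these shares alone was not computed. The cell with the highest Otog level, at 2863 CPM, held 0.55 CPM of Otogl, and the Slc26a4+/- cell with 1258 CPM held 2.34 CPM. With so few cells this is a description, and cells of 1 session are not independent.

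**Figure D3:**
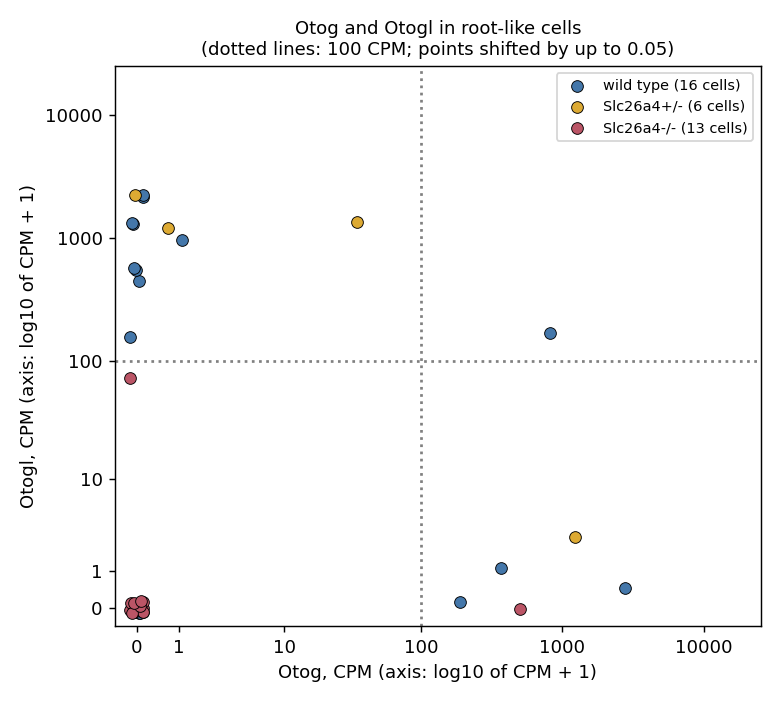
Otog (x axis) against Otogl (y axis), both in CPM on a log10 of CPM + 1 axis, in the 35 root-like cells coloured by genotype, with points shifted slightly so that they do not hide each other and with 100 CPM as dotted lines. Of the 22 wild-type and Slc26a4+/- cells, 1 lies in the upper right field, where both genes are at 100 CPM or more.

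Ceacam16, on chromosome 7 (19852097 to 19861299, minus strand), had 90.5% of its summed CPM in root-like cells, and 4 cells of the whole series held 75.2% of it. Its wild-type root-like cells ran from 0 to 6732 CPM with a median of 0 (mean 449 CPM), and 3 of 16 reached 100 CPM. Slc26a4+/- cells ran from 0 to 4677 CPM with a median of 45.5 CPM, and 2 of 6 reached 100 CPM. Slc26a4-/- cells ran from 0 to 8232 CPM with a median of 211.3 CPM (mean 1307 CPM), and 7 of 13 reached 100 CPM (53.8%, exact 95% interval 25.1 to 80.8%). The log2 ratio of knockout to wild type was 1.54, and 1 wild-type cell at 6732 CPM held 93.8% of the wild-type CPM. The ratio was 4.57 without the highest cell of each group, 5.74 without run 1, which holds that cell, and 7.73 with medians. It was 2.89 in run 4, where 2 of 7 knockout and 1 of 5 wild-type cells reached 100 CPM, but it turned to -0.74 without run 2 and to -1.01 when counts were summed over cells before scaling. Within run 4 the 6 Slc26a4+/- cells had a mean of 843 CPM against 37.7 CPM in the wild type, a larger log2 ratio of 4.45. The cell at 4677 CPM held 92.4% of the Slc26a4+/- CPM. Outside root-like cells, 11 cells reached 100 CPM, at most 525 CPM in a wild-type spindle-like cell.

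Taking the 9 genes in root-like cells of Slc26a4-/- against wild-type mice, 6 had at least 10 CPM in either genotype. Otogl and Otog were at least 2-fold lower, where 28% of all 10012 genes were lower by that measure. Ceacam16 and Otoa were at least 2-fold higher, where 23.1% of all genes were. With 13 and 16 cells the share of genes past this fold was large in both directions, and 2 of 6 was near it, so the counts lie near the background. Otoa had means of 4.73 CPM in wild-type and 31.3 CPM in Slc26a4-/- cells (log2 ratio 2.49), and 1 knockout cell at 248.9 CPM was the highest. In run 4 the ratio was -0.93. Otos had 37.99 and 75.4 CPM and Coch 40.0 and 53.2 CPM in wild-type and Slc26a4-/- cells, within the 2-fold limits. For Coch the runs went in opposite directions. Run 4 had 49.1 CPM in 5 wild-type and 2.99 CPM in 7 knockout cells. Run 2 had 0 CPM in 1 wild-type cell and 111.7 CPM in 6 knockout cells. Otos had 16.5 and 20.5 CPM in run 4, and 2.42 and 139.3 CPM in run 2. In Slc26a4+/- root-like cells Otos (0.48 CPM) and Coch (0.93 CPM) were at least 2-fold lower than in the wild type, where 31.8% of all genes were, and Otor (15.9 CPM, from 1 cell) was higher, where 25.9% of all genes were.

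Of 5 genes over 10 CPM in Slc26a4-/- or wild-type spindle-like cells, Otog and Ceacam16 were at least 2-fold lower in the knockout (33.4% of all genes were) and Otos and Coch higher (22.1% of all genes were). The directions of Otog, Ceacam16 and Coch turned, to log2 ratios of 1.41, 1.38 and -1.30, when cells were named by marker score. Within run 2, Otog was at 0 in both genotypes and Ceacam16 had 7.83 CPM in the 9 knockout and 0 CPM in the 2 wild-type cells. Otos had a mean of 53.9 CPM in 23 wild-type and 125.1 CPM in 9 Slc26a4-/- cells, and Coch 16.1 and 136.4 CPM. Coch exceeded 300 CPM in 3 of the 9 knockout cells, at 446, 444 and 333 CPM, and those 3 also held the highest Otos values, 535, 286.1 and 133.6 CPM. All 9 knockout cells came from run 2, and 2 of 23 wild-type cells did, so run and genotype could not be told apart here. The wild-type Otog mean of 23.6 CPM rested on the cell with 1848 counts. The same cell held 541 CPM of Otos, which was 43.7% of the summed Otos CPM of the wild-type spindle-like cells. Otogl was at 0 in all 9 knockout cells and at a mean of 2.99 CPM in the wild type, under the 10 CPM limit. In the 2 Slc26a4+/- spindle-like cells Otog and Ceacam16 were at least 2-fold lower (43.5% of all genes were) and Coch higher (21% of all genes were).

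In intermediate-like cells 2 genes, Otos and Coch, were over 10 CPM. Otos had means of 20.4, 21.3 and 27.7 CPM in 40 wild-type, 20 Slc26a4+/- and 27 Slc26a4-/- cells. Within runs the wild-type means of Otos were lower, at 2.04 CPM against 39.3 CPM in the knockout in run 2, and in run 4 at 2.82 CPM against 10.9 CPM in the knockout and 21.3 CPM in Slc26a4+/- cells. Coch had 33.9, 19.4 and 10.2 CPM in the same order, a log2 ratio of -1.65 for the knockout, where 17.5% of all genes were at least 2-fold lower. Its medians were 0 in all 3 genotypes, and 1 wild-type cell held 561 CPM. In run 2 the direction was the opposite, 17.1 CPM in the knockout and 0.84 CPM in the wild type. The ratio also turned, to 0.86, when cells were named by marker score and, to 1.88, with the Sorcs2 and Col1a1 cluster added. In Slc26a4+/- cells none of the 9 genes passed the 2-fold limit in either direction, where 18.4% of all genes were lower and 11.3% higher. Within run 4, which holds all of these cells, they were set against 7 wild-type cells. There Otos was at least 2-fold higher, and Coch (19.4 against 59.5 CPM) and Ceacam16 (3.87 against 23.3 CPM) were lower. Of the 7 wild-type cells, Otos and Coch were each counted in 2 and Ceacam16 in 1. The share of all genes past 2-fold within run 4 was not computed.

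Marginal-like cells held the highest wild-type means of Otos and Coch among the named types, from few cells. Of 14 cells, Otos had a median of 3.01 CPM and a highest value of 1559 CPM, which gave a mean of 132.6 CPM, and Coch a median of 1.51 and a highest value of 405.2 CPM, in the same cell. Coch had no count in 5 Slc26a4-/- marginal-like cells, which together held 11835599 counts. Otoa, Otos and Coch were at least 2-fold lower in both mutant groups and none of the 9 genes was higher. The Otos call rested on the cell at 1559 CPM, without which the wild-type mean was 22.8 CPM against 19.5 CPM in Slc26a4-/- and 25.7 CPM in Slc26a4+/- cells. By medians Otos was lower in the wild type, at 3.01 CPM against 26.8 and 25.7 CPM in the same order, as was Otoa against Slc26a4-/- cells, at 1.57 and 5.79 CPM. Of all genes, 26.4% were lower and 26.1% higher in Slc26a4-/- cells, and 39.6% lower and 25% higher in the 2 Slc26a4+/- cells. Run 4 held both Slc26a4+/- and 3 of the 5 Slc26a4-/- cells but 0 wild-type cells. Run and genotype could therefore not be told apart for Slc26a4+/-. In run 2, 4 wild-type and 2 Slc26a4-/- cells had means of 35.6 and 0 CPM for Otos, 81.6 and 0 CPM for Coch, and 8.63 and 2.89 CPM for Otoa.

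Otos, on chromosome 1 (92644218 to 92648841, minus strand), and Coch, on chromosome 12 (51593341 to 51605771, plus strand), were found in every cluster and reached their highest values outside the named types. The Slc4a1 and Hbb-bs cluster held 71% of the summed CPM of Otos and 60.4% of that of Coch. There, the 3 cells of the series with over 1000 CPM of both genes, all wild type, held 13742, 6299 and 1066 CPM of Otos together with 2201, 4730 and 8607 CPM of Coch. The same 3 cells, in that order, held 4655, 17251 and 21365 CPM of Car3, a cytosolic carbonic anhydrase, and 956, 1402 and 2934 CPM of Dcn, the proteoglycan decorin. Col1a1, Col1a2 and Col3a1, the main fibrillar collagens, were at 3.25 CPM or below in all 3. These cells were of runs 2, 2 and 3 and were sequenced to 1924583, 3257050 and 1539056 counts. The Otos-richest of them also held the highest Otor level of the series, 527 CPM.

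Elsewhere the highest levels of both genes were lower. Over all clusters, of 40 cells with Otos and 35 cells with Coch at 100 CPM or more, 20 had both, which is 50% of the first and 57.1% of the second. The Slc4a1 and Hbb-bs cluster held 12 of the 40, 7 of the 35 and 6 of the 20. In the Sorcs2 and Col1a1 cluster, 2 Slc26a4-/- cells of run 2 held 2194 and 2021 CPM of Coch with 471 and 139.1 CPM of Otos, beside 2543 and 2597 CPM of Kcnj10, the potassium channel of intermediate cells. The erythroid markers of the Slc4a1 and Hbb-bs cluster summed to a median of 215.6 CPM and a highest value of 254886 CPM in its wild-type cells.

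**Figure D4:**
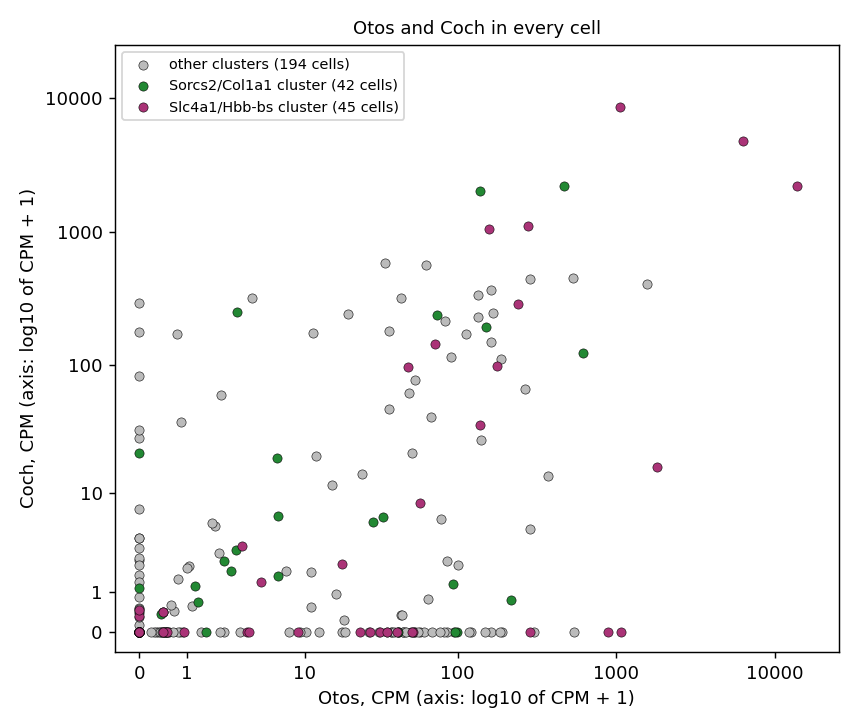
Otos (x axis) against Coch (y axis) in each cell, both in CPM on a log10 of CPM + 1 axis. The 3 cells of the Slc4a1 and Hbb-bs cluster at the upper right hold 1066 to 13742 CPM of Otos and 2201 to 8607 CPM of Coch.

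Otoa, on chromosome 7 (121081650 to 121163097, plus strand), had 67.5% of its summed CPM in the Crhbp and Slc26a7 cluster, in which 3 of 11 wild-type cells held 1701, 523 and 507.97 CPM. None of the 4 Slc26a4+/- and 2 Slc26a4-/- cells of this cluster exceeded 4.89 CPM. The kind of transcript differed between clusters. In the Crhbp and Slc26a7 cluster 60.3% of the Otoa counts were on protein-coding transcripts, with 10 counts or more in 4 of 17 cells. Another 37.9% were on transcripts annotated for nonsense-mediated decay and 1.77% on a transcript with a retained intron. Spindle-like cells had 83.9% on protein-coding transcripts, with 10 counts or more in 3 of 34 cells, and 11.2% on that intron-holding transcript. In intermediate-like cells 96% were on the intron-holding transcript and 3.80% on protein-coding ones. In root-like cells the intron-holding transcript took 65.5%. Marginal-like cells had 58.5% on it and 41.5% on protein-coding transcripts, with 10 counts or more of the latter in 1 of 21 cells.

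The tectorins were almost without counts. Tecta, on chromosome 9 (42329619 to 42399929, minus strand), had 0 counts in every cell, and all cells together held 445750007 counts, so that 3 counts would be 0.00673 CPM. Tectb, on chromosome 19 (55180733 to 55196313, plus strand), had 419 counts in 3 cells, 417 of them in 1 Slc26a4+/- intermediate-like cell at 140 CPM. Of these counts 99.8% were on a transcript annotated as not protein-coding. Otor, on chromosome 2 (143078473 to 143081713, plus strand), was counted in 15 cells, 5 of them with 10 counts or more, and 72% of its summed CPM lay in the Slc4a1 and Hbb-bs cluster. Its single root-like cell with 10 counts or more was Slc26a4+/-, at 95.3 CPM.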

How the data were processed

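Single cells were prepared with Smart-Seq2, and per the study's methods the authors pseudo-aligned the reads with kallisto to the mm10 (GRCm38) transcriptome. The version and annotation release are not given in the sources used here. The deposited gene table holds estimated counts per gene and cell, cut to whole numbers. The deposited cell files hold estimated counts and TPM per transcript. Of 298 columns, 17 match no sample and were not used.

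Counts were divided by each cell's total to give CPM. Cells were clustered with Seurat 5.3.0 (R 4.3.3, 2000 variable genes, 1888 after leaving out a list of 533 genes that holds the 9 members, 10 principal components, resolution 0.8). Names required a highest score for the same marker list in 80% of a cluster's cells or more, 3 detected markers and leading genes that did not go against the name. Doublets were not called, since each cell was picked by eye. Of the 177 named cells, 4 scored higher for another type, and 33 of all cells had their highest 2 scores within 0.25.

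Genes with at least 10 CPM in either genotype were called at a 2-fold difference of means (1 CPM added). Exact binomial intervals (95%) and the limit of 3 counts cover counting error only. Genotypes were compared as means over cells with no test, since the labels name no mouse. The fold calculation was tested on simulated data. TPM were summed over transcripts of GENCODE M21, and 1376 of 98492 transcripts had no gene. Alternatives were another naming of cells, TPM, summed counts with TMM factors (edgeR 4.0.16), medians, session means, filters, pseudocounts and leaving out each run or the highest cell.

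The genes named were the 9 members, a related list of 25 genes given as counts with those over 10 CPM in a named wild-type cell type, and for each member the 3 genes most alike over pools of at least 3 cells. Members, lists and markers were chosen with earlier results of these data known. The study itself singled out Otogl in these cells, so its direction here is not independent evidence.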

Additional observations from a re-analysis of the deposited data

Results flagged for a closer look

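Otog was measured in the gene table by 1 of its 3 transcripts. The table's value equalled the estimated count of ENSMUST00000164538.1, the long protein-coding transcript, in every cell to within 1 count. The cell files also hold 5698.1 counts of ENSMUST00000210281.1, a short transcript with a retained intron, and 348.1 counts of ENSMUST00000209802.1, annotated as protein-coding. These lie outside the gene table and above the limit of 3 counts. For ENSMUST00000210281.1, 4585 counts were in wild-type and 967 in Slc26a4+/- root-like cells, where the long transcript had 5656 and 2361 counts. In Slc26a4-/- root-like cells the 2 transcripts had 32.4 and 146.6 counts. ENSMUST00000209802.1 was scattered over the clusters, with 64 counts in Slc26a4+/- and 42.8 in wild-type root-like cells and 52.9 in wild-type cells of the Crhbp and Slc26a7 cluster.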

How the results depend on the processing

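Counts of genes per comparison are small, and of the recomputed values of 10 such counts 120 stayed within 1.5 times and 38 did not. Of 1071 recomputed ratios and levels of single genes 954 stayed within the spread and 14 changed direction. The spread here was 1 standard deviation of the wild-type session means, on log2 of CPM + 1 for ratios. It was wide for some genes. The Ceacam16 log2 ratio in Slc26a4-/- root-like cells counted as within it at 4.57 against 1.54 as reported. A change of direction was counted only for ratios of at least 2-fold as reported, so smaller ratios that turned are not among the 14. The number expressed in wild-type cell types (6) stayed between 5 and 7 but was 1 with medians over cells, and the number highest in root-like cells (3) stayed at 2 or 3 but was 1 with medians and 5 without run 3. With medians over cells, which are 0 for most genes, the counts in Slc26a4-/- cells were 1 lower in root-like, 0 lower and 1 higher in spindle-like and 0 lower in intermediate-like cells. The number higher in Slc26a4-/- root-like cells (2) was 1 with TMM-scaled sums, 4 without run 1, 0 without run 2, 4 without run 4 and 1 in run 4 alone. The number lower in Slc26a4-/- spindle-like cells (2) was 1 with TMM-scaled sums, with cells of at least 100000 counts, with a filter on detected genes and mitochondrial counts per cell, without run 3, without run 4 and without the highest cell. The number lower in Slc26a4-/- intermediate-like cells (1) was 2 with TPM, without run 1, 2 or 3 and in run 4 alone, 3 with genes from 1 CPM, and 0 without run 4 and with the Sorcs2 and Col1a1 cluster added. The number higher there (0) was 2 with that cluster added and 1 without run 3 and in run 4 alone. In Slc26a4+/- intermediate-like cells the number lower (0) was 3 with cells named by marker score, 2 with genes from 1 CPM and in run 4 alone, and 1 without run 1, 2 or 3, and the number higher (0) was 1 with genes from 1 CPM, without run 3 and in run 4 alone.

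The log2 ratios to the wild type that were at least 2-fold as reported and changed direction follow. With cells named by marker score they were Coch 0.86 in Slc26a4-/- intermediate-like cells, Otog 1.41, Ceacam16 1.38 and Coch -1.30 in Slc26a4-/- spindle-like cells and Coch -2.74 in Slc26a4+/- spindle-like cells. With TMM-scaled sums they were Ceacam16 0.080 in Slc26a4+/- intermediate-like and -1.01 in Slc26a4-/- root-like cells. With medians they were Otoa 1.62 and Ceacam16 2.18 in Slc26a4+/- spindle-like cells, and without run 2 Ceacam16 -0.74 in Slc26a4-/- root-like cells. With the Sorcs2 and Col1a1 cluster added they were Ceacam16 0.37 and Coch 1.88 in Slc26a4-/- intermediate-like cells, and in run 4 alone Otor 0.024 in Slc26a4+/- intermediate-like and Otoa -0.93 in Slc26a4-/- root-like cells. The added cluster, run 4 alone and the levels without the highest cell of 1 group were chosen after seeing the data. The cause was not tested. No paired analysis was possible because each replicate number occurs once in the series, and values within shared runs are given in its place.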

Other observations

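A related list of 25 other genes of inner ear matrices and of the same protein families was followed in the same way. In wild-type cells 13 of 25 reached 10 CPM in a named type, 7 of them highest in root-like cells, 3 in spindle-like, 2 in marginal-like and 1 in intermediate-like cells. Those highest in root-like cells were the tectorial membrane collagens Col9a3 (459 CPM), Col9a1 (275.5 CPM), Col11a2 (152.3 CPM), Col9a2 (53.3 CPM), Col2a1 (51.8 CPM) and Col11a1 (43.5 CPM), and Strc (13.8 CPM), which encodes stereocilin. Sparc (1045 CPM), Mia3 (143.9 CPM) and Mia (92.9 CPM) were highest in spindle-like cells, Sparcl1 (5484 CPM) and Adgrv1 (16.6 CPM) in marginal-like cells, and Ceacam1 (428 CPM) in intermediate-like cells. Oc90, Zpld1, Umod, Mia2 and Msln had 0 counts in the wild-type cells of these types. In Slc26a4-/- against wild-type root-like cells, 4 of the 12 genes over 10 CPM were at least 2-fold lower and 3 higher. Of all 10012 genes 28% were lower and 23.1% higher, so these counts lie near the background. The median log2 ratio was -0.04 against -0.08 over all genes. Col2a1 had 0 CPM and Col9a2 had 207.2 CPM in the knockout.

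Over 33 pools of at least 3 cells of 1 cluster, genotype and run, the genes with the profiles most like Otogl were Mansc4, Gm20760 and Krt19 (Pearson r 0.93 each, over 14838 genes). For Otog they were Crabp2 (0.91), Gprc5a (0.86) and Aqp4 (0.85), for Ceacam16 Tmprss3 (0.78), Ccdc80 (0.77) and Lgr5 (0.76), for Otoa Cpt1c, 1600002K03Rik and Kctd8 (0.74 each), for Otos Slc4a11, Apod and Coch (0.73, 0.73 and 0.72), and for Coch Apod, Hba-a2 and Otos (0.73, 0.73 and 0.72). Pools of 1 cluster share cell type and run, and these values are descriptions.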
